A study of Mus musculus with 2 samples.

Results

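Trophic ligands and co-receptors of the glial cell line derived neurotrophic factor (GDNF) family were compared in the mouse subventricular zone, the neurogenic layer of the lateral ventricle wall, after focal demyelination. The genes were taken by symbol from the spot list of a membrane array. They are the 4 ligands Bdnf, Ntf5, Fgf2 and Gdnf and the 3 co-receptors Gfra1, Gfra2 and Gfra3, together 7 of the 263 genes spotted. One group received lysolecithin, a lysophospholipid that demyelinates the injected tract, and the other NaCl as vehicle, both by injection into the corpus callosum. Tissue was collected at 4 days in mice of postnatal day 60, and the labels state neither strain nor sex nor how many mice gave the RNA. Each group has 1 array, so the differences below are untested and unreplicated, and "higher" and "lower" describe these 2 films alone.

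The neurotrophins Bdnf and Ntf5 both act through the receptor tyrosine kinase TrkB, which Ntrk2 encodes, and also bind the low-affinity receptor Ngfr. GDNF family ligands bind a GFRα co-receptor anchored in the cell membrane, and the ligand and co-receptor together engage the receptor tyrosine kinase Ret. Fgf2 signals through fibroblast growth factor receptors and is widely used to expand neural stem cells of the subventricular zone in culture.

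The spot values come from a workbook whose header names a neurogenesis and neural stem cell array, whereas the labels name a smaller array of neurotrophic genes, and whose project title is for neural stem cells at another day after lesion. Its 2 arrays, tagged WT, were matched to the groups by agent, as their names say NaCl and lysolecithin, and it is not known whether their RNA is that of the labelled samples, so tissue and day are given here as the labels state them. Of a chosen list of 35 cell type markers, 7 were on the array, and other spotted genes that may mark these cell types were not examined for this. Nes, of neural progenitors, and Olig1, of the oligodendrocyte lineage, were called present on both arrays. Dcx, of neuroblasts, was called present on the lysolecithin array only, where the film around its spot was far darker too, at 37465 against 11568 on the NaCl array. S100b, of astrocytes and ependymal cells, was called present on the NaCl array only. Its densities were close, at 15017 on the lysolecithin array and 14958 on the NaCl array. Olig2, of the oligodendrocyte lineage, and Mtap2, of neurons, were called absent on both. Of the listed markers of microglia or endothelium 0 were spotted, so a change in those cells could not be read from the list. In bulk tissue, fewer cells of a type and less RNA per cell cannot be told apart.

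Each value is the mean darkness of a spot on scanned film, its density, in scanner units. The workbook also gives the darkness of the film around the spot, the local background. Film saturates, and the highest density of any spot was 60348, leaving out 1 spot at 88903 (Chrd on the lysolecithin array). A spot at or above 0.95 of 60348, that is 57331, was taken as near the ceiling, where more RNA can add little darkness. By this cut Ntf5 was near the ceiling on both arrays and Bdnf on the lysolecithin array. Just under it lay the NaCl spots of Fgf2, at 94.4% of the highest density, and of Bdnf, also at 94.4%. The other 4 genes, Gdnf and the 3 co-receptors, lay between 24.4% and 50.2% on the lysolecithin array and between 25.5% and 43.1% on the NaCl array, so the ceiling did not limit them.

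**Figure D1:**
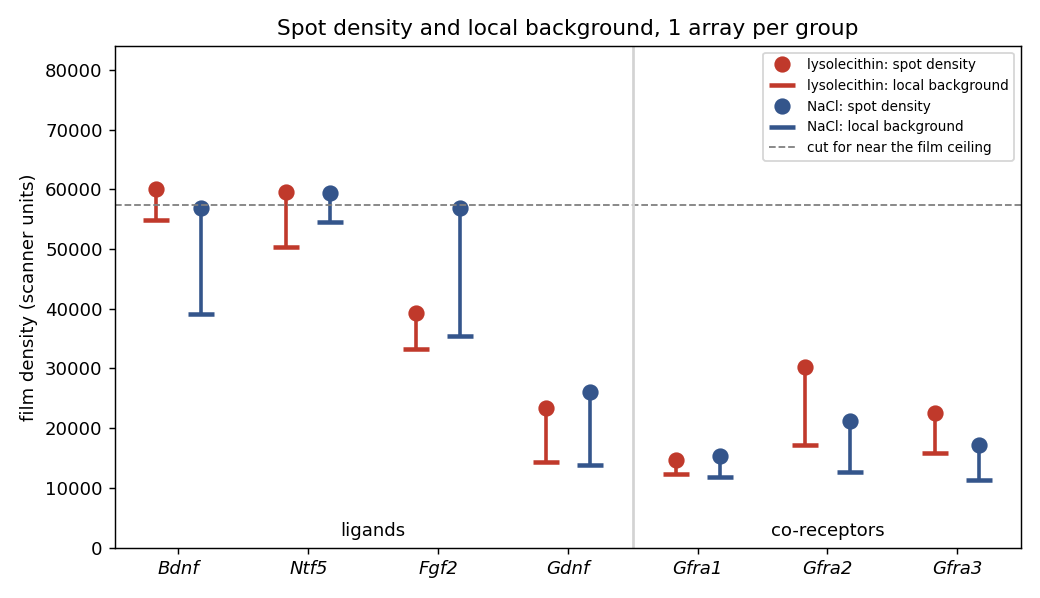
Spot density (circles) and local background (bars) in scanner units for each gene, lysolecithin in red and NaCl in blue, 1 array each. The dashed line is the cut of 57331 for near the ceiling. Both spots of Ntf5 and the lysolecithin spot of Bdnf lie above it, and the Fgf2 spot stands far lower on the lysolecithin array.

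Fgf2 had the clearest difference among the ligands and was lower after lysolecithin. Its density was 39238 on the lysolecithin array and 56943 on the NaCl array, a difference of -17704 units. The film around it was close on both, at 33216 on the lysolecithin array and 35422 on the NaCl array. The spot therefore exceeded its surroundings by 6023 units after lysolecithin and by 21521 units after NaCl, a change of -15498. Of the 38 other genes below the ceiling cut and called present on both arrays, 0 had as large a fall of this excess, and their changes ran from -11402 to 7051 with a median of -1633 (SD 4494 over genes, which are not replicates). The control spots of Gapdh, Ppia and B2m are not among these 38. The excess changed by -13949 at Ppia spot 3, -10413 at Ppia spot 2 and -7144 at Gapdh spot 3. At the other spots of these control genes it changed by -2426 to 1408. Both of these Ppia spots were near the ceiling on the lysolecithin array. All 7 adjoining gene spots called absent on both arrays differed by little, between -2123 and 607 units. Their median density was 9979 on the lysolecithin array and 10817 on the NaCl array, well under the local background of Fgf2. That background was 84.7% of the Fgf2 density on the lysolecithin array and 62.2% on the NaCl array. Whether it holds spread from the Fgf2 spot itself was not tested. Among the 13 genes with a density of at least 50000 on the NaCl array, Fgf2 had the largest fall, and the next was Ntn1, at 49607 on the lysolecithin array and 58428 on the NaCl array. Among genes present on both arrays, Bdnf had the NaCl density nearest to that of Fgf2, with 60009.5 on the lysolecithin array and 56940.1 on the NaCl array. Dbn1, the next nearest, had 53836 on the lysolecithin array and 57492 on the NaCl array. Picking genes by a high NaCl density favours falls. The NaCl spots of Ntn1 and Dbn1 and the lysolecithin spot of Bdnf were also above the ceiling cut, so these comparisons only describe the spots.

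The size of the Fgf2 difference depended on what was taken as background. With the lowest density of each array subtracted and the mean of the control genes Gapdh and Ppia set equal, Fgf2 had 0.652 times its NaCl value, a log2 ratio of -0.62. By the same measure Gapdh spot 3 had -0.63 and B2m spot 1 had -0.40, both control spots below the ceiling cut on both arrays. The other Gapdh, Ppia and B2m spots, near the ceiling on at least 1 array, had 0.004 to 0.15. A fall of this size was thus also found at a control spot. With local background subtracted the log2 ratio was -1.77. Without any subtraction it was -0.51, which is within 1.5-fold, as was the value of -0.53 with Gapdh alone. The direction was the same in all 9 settings run. The change of the excess was -4202 units when each array's excess was scaled by that of the control spots, and -13349 when the median excess of the genes present on both arrays was set equal. Its NaCl spot was close to the ceiling, so a larger difference would be compressed. Fgf5, the only other fibroblast growth factor on the array, was called absent on both, and no fibroblast growth factor receptor was spotted.

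Gdnf, a survival factor for dopaminergic and motor neurons, was slightly lower after lysolecithin. Its density was 23355 on the lysolecithin array and 26034 on the NaCl array, over a local background of 14364 on the lysolecithin array and 13883 on the NaCl array. The excess was 8991 units after lysolecithin and 12150.4 units after NaCl, a change of -3159. As large a fall was found in 13 of the 38 other present genes, so this difference was ordinary for these films. The log2 ratio was -0.25, within 1.5-fold, and it ran from -0.51 to -0.13 over 8 settings. The change of the excess was 49.6 units with the median excess of the present genes set equal and 13705 with the control excess set equal. The sign of this measure thus depended on the scaling. Both scalings multiply the lysolecithin value, by 1.36 with the median and 2.88 with the controls, so they can only raise a change. The control factor rests mostly on spots near the ceiling, so the value it gives does not bear on the direction.

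Bdnf and Ntf5 could not be compared between the groups. Bdnf, a neurotrophin of adult neurons, had a density of 60009.5 on the lysolecithin array and 56940.1 on the NaCl array. Ntf5 had 59571 on the lysolecithin array and 59306 on the NaCl array. Both pairs were thus nearly equal, with log2 ratios of 0.12 for Bdnf and 0.04 for Ntf5, at densities at or close to the ceiling.

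The film around these spots was dark, least so around Bdnf on the NaCl array. Local background was 91.3% of the Bdnf density on the lysolecithin array and 68.7% on the NaCl array. For Ntf5 it was 84.6% on the lysolecithin array and 91.9% on the NaCl array. The excess of Bdnf was 5199 units after lysolecithin and 17832.5 after NaCl, and that of Ntf5 was 9179 after lysolecithin and 4803 after NaCl, so the 2 neurotrophins went opposite ways on this measure. With local background subtracted the log2 ratios were -1.71 for Bdnf and 1.00 for Ntf5.

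The spots that touch Bdnf also changed on this measure, most of them downward. Ppia, a housekeeping gene spotted in the same corner, had its spot at the end of the row directly above Bdnf on the membrane, with an excess of 3475 units on the lysolecithin array and 17424 on the NaCl array. The Ppia spot diagonal to Bdnf had 5131 units on the lysolecithin array and 15544 on the NaCl array. Their changes of -13949 and -10413 lie on either side of the -12634 of Bdnf, and Cdk5rap3, a gene that also touches Bdnf, changed by -9513. Chrd, directly below Bdnf, went the other way, with an excess of 56939.6 units on the lysolecithin array, where its density is above any other spot, and 17526 on the NaCl array. Bcr, the gene to the left of Bdnf and called absent on both arrays, was itself darker, at 27928 on the lysolecithin array and 14354 on the NaCl array. The authors marked Bdnf as bleeding, that is spreading into its surroundings, on the lysolecithin array and Ntf5 on both arrays. Ntn1, to the right of Ntf5, was marked on both arrays as well. No direction is given for Bdnf or Ntf5.

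**Figure D2:**
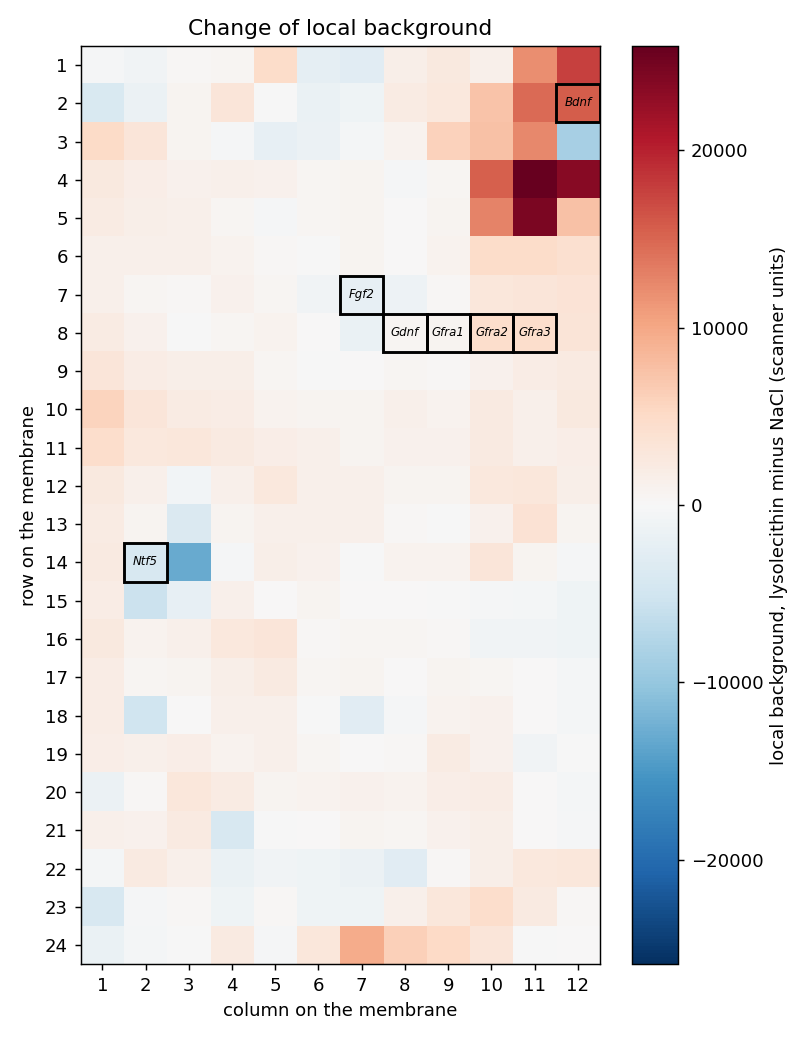
Change of local background at each of 288 spots, lysolecithin minus NaCl in scanner units, drawn on the membrane grid of 24 rows and 12 columns, with the 7 genes outlined. The upper right corner, which holds Bdnf, was darker on the lysolecithin array, the spots of Gfra2 and Gfra3 lie at its lower edge, and Fgf2, Gdnf and Gfra1 lie to the left of it.

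Of the co-receptors, Gfra2 was higher after lysolecithin, Gfra3 was higher in density together with the film around it, and Gfra1 was near the limit of detection. The 3 spots lie side by side on the membrane, next to Gdnf. Gfra2, the preferred co-receptor of neurturin, had a density of 30323 on the lysolecithin array and 21182 on the NaCl array. Its local background was higher too, at 17195 on the lysolecithin array and 12641 on the NaCl array. Over that background the excess was 13128 units after lysolecithin and 8541 after NaCl, a change of 4587, and 2 of the 38 other present genes gained as much. Both scalings of the excess multiply the lysolecithin value, by 1.36 with the median and 2.88 with the controls, so a gain can only grow. It became 9272 units with the median and 29210.3 with the controls. The log2 ratio was 0.73, a fold of 1.66, and 0.68 with local background subtracted. It was under 1.5-fold, at 0.55 without subtraction and at 0.47 with the medians of the present genes set equal.

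Gfra3, the co-receptor of artemin, had a density of 22546 on the lysolecithin array and 17264 on the NaCl array, a difference of 5282 units. Its local background differed by 4459 units, at 15830.5 on the lysolecithin array and 11372 on the NaCl array. The excess was therefore 6715 units after lysolecithin and 5892 after NaCl, a change of 823, and 11 of the 38 other present genes gained as much. The change was 3219.8 units with the median excess set equal and 13419 with the control excess set equal, so its size depended on the scaling. The log2 ratio of 0.58, a fold of 1.499, lay just under 1.5-fold. It passed with Gapdh alone, at 0.67, and was 0.25 with local background subtracted.

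Gfra1, the main co-receptor of GDNF itself, was called present on the NaCl array and absent on the lysolecithin array, although its densities were close, at 14751 on the lysolecithin array and 15417 on the NaCl array. Its excess was 2354 units after lysolecithin and 3654 after NaCl. The change of -1299 was matched or exceeded downward by 20 of the 38 other present genes, so the switch of the call does not by itself show a loss of Gfra1. The change was 3116 units with the control excess set equal and -459.2 with the median excess set equal, and no fold is given.

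The dim spots around Gfra2 and Gfra3 were also darker on the lysolecithin array. All 6 gene spots that adjoin Gfra3 and were called absent on both arrays were darker, by 1589 to 4953 units with a median of 2777. Around Gfra2, 4 of 5 such spots were darker, with a median of 1589 and a highest change of 3064, against 9141 for Gfra2 itself. Gfra3, at 5282, gained slightly more than Fyn, which had the largest change of these spots. The absent calls leave out Igf1, which touches both Gfra2 and Gfra3, was called present on both arrays and gained 8245 units, with 18686 on the lysolecithin array and 10441 on the NaCl array. Around Gfra1 the changes ran from -2123 to 3064 with a median of 452.7, and around Gdnf from -2123 to 663 with a median of 138.7. With the median of these neighbours taken as background, a setting added after the data were seen, the log2 ratios were 0.77 for Gfra2, 0.31 for Gfra3, -0.20 for Gdnf and -0.59 for Fgf2.

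**Figure D3:**
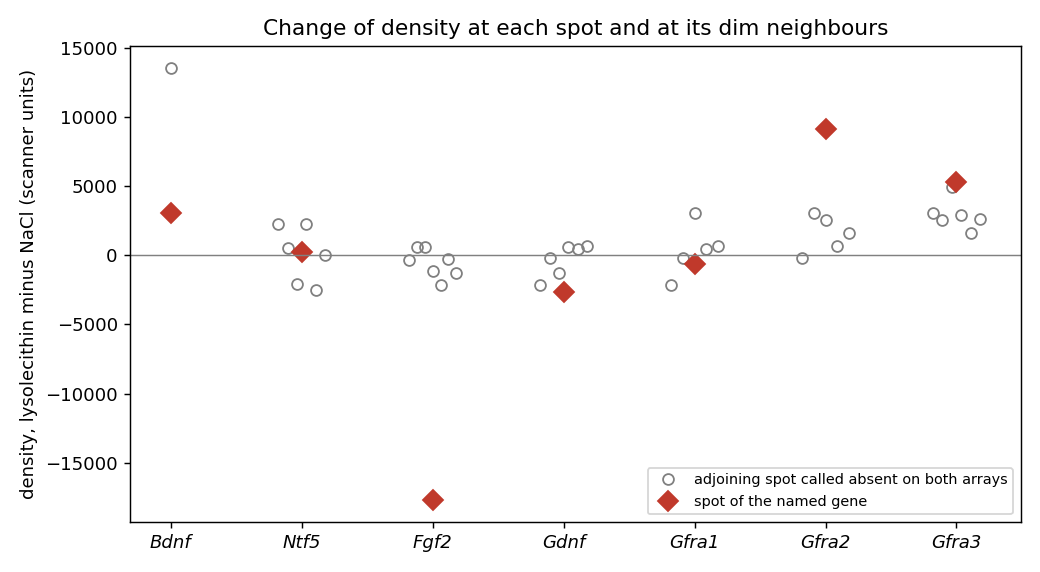
Change of density, lysolecithin minus NaCl in scanner units, at the spot of each gene (red diamond) and at the adjoining gene spots called absent on both arrays (open circles). Fgf2 and Gfra2 stand far outside the range of their own neighbours drawn, in opposite directions. Gfra3 lies just above the highest of its neighbours and Gdnf just below its lowest. Igf1, which touches Gfra2 and Gfra3 and gained 8245 units, was called present and is not drawn.

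Of the 199 genes called absent on both arrays, 146 had a darker spot on the lysolecithin array, with a median change of 759 units, and the difference was larger in the upper right. In columns 10 to 12 of rows 1 to 9, an area chosen after the map of local background was seen, all 12 genes called absent on both arrays were darker after lysolecithin, with a median change of 3646 units. In columns 1 to 9 of the same rows, 39 of 60 were darker, with a median of 604.5, and over all rows of those columns 116 of 156. Bdnf, Gfra2 and Gfra3 lie in the first area and Fgf2, Gdnf and Gfra1 in the second. The part of this film difference in the values of Gfra2 and Gfra3 was not tested beyond the subtractions given above.

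The median of the co-receptors lay above that of the ligands. Among genes called present on both arrays, the 4 ligands had a median log2 ratio of -0.10, within a range of -0.62 to 0.12, and the 2 co-receptors Gfra2 and Gfra3 a median of 0.66, against a median of 0.04 over all 49 such genes. The ligand median minus the co-receptor median was -0.76, but the ligand median draws on Bdnf and Ntf5, whose near-ceiling spots cannot be compared. Settings that change only the scaling cannot move this difference. In the other settings that gave a value it stayed below 0, from -1.51 with local background subtracted to -0.53 without subtraction. With Gfra1 included it was -0.69. Without Bdnf and Ntf5 the difference rested on Fgf2 and Gdnf against Gfra2 and Gfra3 and was -1.09. Both co-receptors lie in the darker area of film and the ligands with usable values, Fgf2 and Gdnf, do not, so role and place on the membrane cannot be told apart in these counts.

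At a threshold of 1.5-fold, 1 of the 6 genes present on both arrays was higher (Gfra2) and 1 was lower (Fgf2). Over all 49 genes present on both arrays, 12.2% were higher and 6.12% lower by this threshold, together 18.4%. With 6 genes a count of 1 each way is near what those shares give. At 2-fold the count was 0. With Gapdh alone 2 were higher (Gfra2 and Gfra3) and 0 lower. Gapdh spots 1 and 2 were near the ceiling and nearly equal on the arrays, so this setting turns mainly on Gapdh spot 3. That spot had 27794 on the lysolecithin array and 38938 on the NaCl array. With local background subtracted, 4 of the 6 and 20 of the 49 genes passed 1.5-fold, but the 4 include Bdnf and Ntf5, for which no direction is given.

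**Figure D4:**
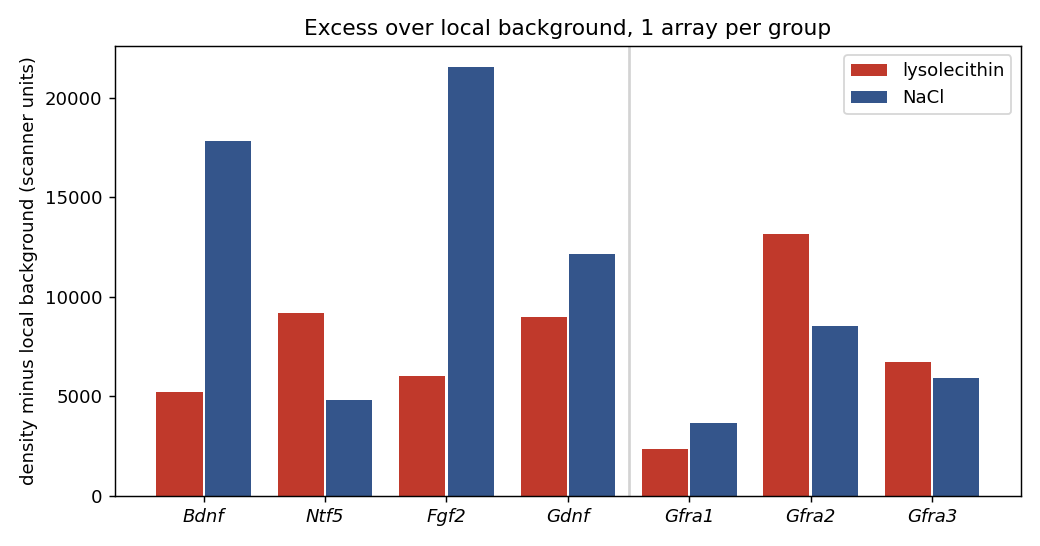
Density minus local background in scanner units for each gene, lysolecithin in red left of NaCl in blue, 1 array each and so without error bars. Fgf2 has 6023 against 21521 units and Gfra2 13128 against 8541, while the bars of Gfra3 are close.

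Other genes of the same pathways were called absent, as most genes on the array were. Of 14 genes on the array from the neurotrophin, GDNF and fibroblast growth factor lists, the other 7 were all called absent on both arrays, as were 199 of all 263 genes. They are the ligands Ngfb, Ntf3, Artn and Fgf5 and the receptors Ngfr, Ntrk2 and Ret. For 5 of the 7 the spot was paler than the film around it on both arrays, as it was for 93 of the 199 absent genes. Ret, the shared signalling receptor of the GDNF family, had a density of 9842 on the lysolecithin array and 10928 on the NaCl array. Its excess was -344.4 units after lysolecithin and 231.3 after NaCl. Ntrk2, which encodes TrkB, had 10791 on the lysolecithin array and 9527 on the NaCl array, with an excess of -848.0 units after lysolecithin and -921.2 after NaCl. Artn, the ligand of Gfra3, had a density of 21562 on the lysolecithin array and 24062 on the NaCl array, and the film around it was darker still, at 27573 on the lysolecithin array and 29095 on the NaCl array. An absent call on film does not say that the RNA was missing. The calls did not follow the excess alone. Gfra1 was called absent on the lysolecithin array with an excess of 2354 units, and Igf1 present on the NaCl array with 736.7. All 7 ligands and co-receptors described here exceeded their local background on both arrays, as did 115 of all 263 genes. The 2 blank spots, which were paler than the film around them, had densities of 24859 and 28655.5 on the lysolecithin array and 25489.7 and 29859 on the NaCl array. Gfra1 and Gfra3 on both arrays, Gdnf on the lysolecithin array and Gfra2 on the NaCl array were paler than both blanks, and Gdnf on the NaCl array lay between them. Local background at the blanks was 29790 and 31416 on the lysolecithin array and 29446 and 31649 on the NaCl array. Around Gdnf and the co-receptors it was at most 17195, at Gfra2 on the lysolecithin array. Whether the darker film accounts for the density of the blanks was not tested, so the comparison with the blanks does not settle whether these genes were detected.

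**Figure D5:**
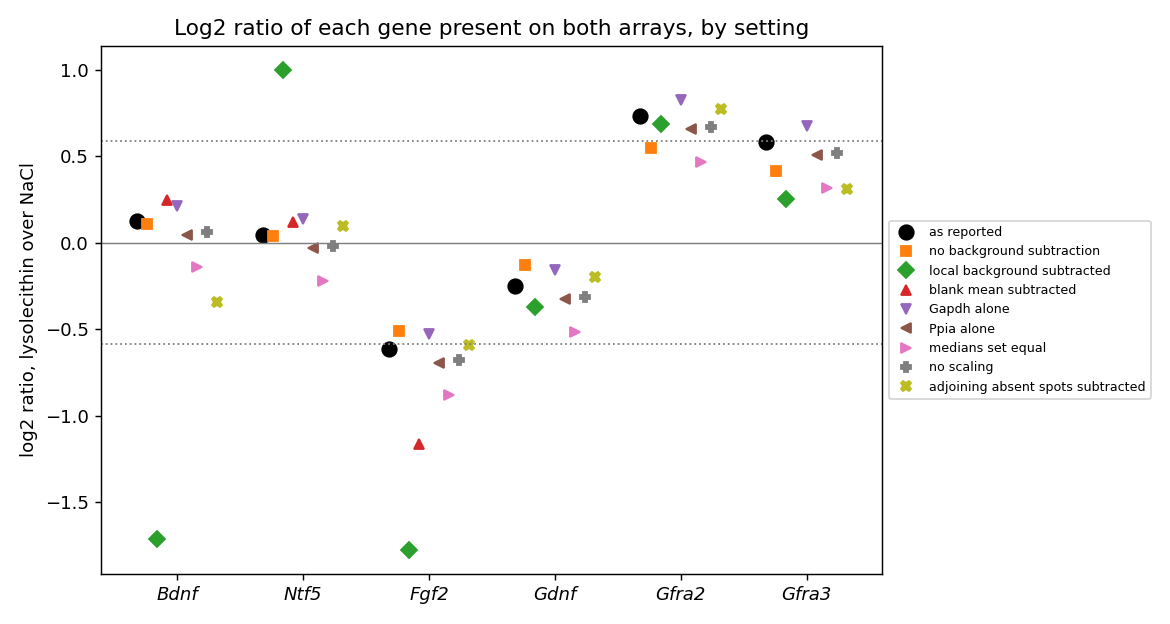
Log2 ratio, lysolecithin over NaCl, of the 6 genes called present on both arrays, as reported (black circles) and under 8 other settings of background or scaling. Dotted lines mark 1.5-fold. Fgf2 and Gdnf stay below 0 and Gfra2 and Gfra3 above 0 in the settings that give a value, while Bdnf and Ntf5 cross it.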

How the data were processed

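RNA of the subventricular zone, 1 µg of total RNA per sample, was made into biotin-labelled cRNA, and film densities were read with GEArray Expression Analysis Suite 2.0, per the labels. Per the file headers, the deposited workbook holds for each spot the intensity (average density) and that of the local background, calls of present or absent (threshold 1.5) and a bleeding mark. Its report signals and ratios, and a second table of unnamed spots, were not used. Positions were placed on the grid from the sheet that draws the membrane, where 576 of 576 symbols matched. The accessions of all 7 genes matched the RefSeq gene table of GRCm38.p6 under the same symbols.

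For log2 ratios the lowest density of each array (8256 for lysolecithin, 7301 for NaCl) was subtracted and the result divided by the mean of the Gapdh and Ppia spots, most of which are near the ceiling. This scaling moved every log2 ratio by 0.06. It was kept where local background, the blank mean or adjoining spots were subtracted, a choice made after seeing that most control spots are near the ceiling and that their excess differs widely between spots. Genes named are the 7, the other genes of 3 pathway lists, the markers, controls, and spots adjoining or near in density; Ntn1, Bcr, Cdk5rap3, Fyn and Chrd were chosen after their values were seen. The genes, lists, thresholds and tests were chosen with earlier results of these data known. The arithmetic was checked on simulated data. With 1 array per group, precision is limited by the number of arrays and no p-values are given. Python 3.11.15, NumPy 2.4.6 and matplotlib 3.10.9 were used. One marker gene is not reported here.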

Additional observations from a re-analysis of the deposited data

How the results depend on the processing

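No paired analysis was possible because there is 1 array per group. With local background subtracted, 4 of the 6 genes and 20 of the 49 passed 1.5-fold, and ligands minus co-receptors was -1.51; without subtraction 0 of the 6 passed. With the blank mean subtracted 1 of the 3 that kept a value passed (Fgf2, log2 ratio -1.17), and no co-receptor had a value. The film around the blanks was darker than that around the co-receptors. With the medians set equal 1 of the 6 passed and 15 of the 49, with 4 higher and 11 lower against 6 and 3 as reported; with Gapdh alone the split was 8 and 1, and among the 6 it was 2 higher (Gfra2 and Gfra3) and 0 lower. At 2-fold 0 of the 6 and 4 of the 49 passed. Genes present on either array gave 18 past 1.5-fold and no filter gave 97, out of 64 and 261 genes, so the share rose as well as the number. Without spots near the ceiling, ligands minus co-receptors was -1.09. Changes of excess depended on scaling, with factors of 2.88 on the lysolecithin array from the control excess and 1.36 from the median excess. By these 2 scalings in turn, Gdnf changed by 13705 and 49.6 units against -3159 as reported, Fgf2 by -4202 and -13349, Gfra2 by 29210.3 and 9272, Gfra3 by 13419 and 3219.8, Gfra1 by 3116 and -459.2, Bdnf by -2883 and -10778, and Ntf5 by 21591.5 and 7651. Apart from what the construction shows, the cause was not tested. Of 45 single log2 ratios under 8 alternatives, 38 moved by less than 0.27 and 7 by more. That value is the pooled SD of 9 repeated control spots around the mean of their gene. Most were near the ceiling, with log2 ratios of 0.004 to 0.15, while Gapdh spot 3 and B2m spot 1, below the cut, had -0.63 and -0.40. The SD mixes saturated and unsaturated spots and is a weak yardstick. Scalings cannot move ligands minus co-receptors by construction.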
